A study of Mus musculus with 18 samples.

Results

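The question was whether genes of stress and damage need the aryl hydrocarbon receptor (AHR) to bind DNA in order to respond to benzo[a]pyrene (BaP), and it was put to 12 of the 18 arrays of the series. Hepa-1c1c7 cells with the wild-type receptor, a line from a liver tumor of a male C57BL/6 mouse, and c35 cells, which derive from that line (strain given as C57BL/6 derived) and whose *Ahr* gene carries a missense mutation, were given 5 µM BaP in DMSO or DMSO alone for 8 hr. The mutant protein still binds ligand and enters the nucleus but does not bind DNA, so c35 cells are not cells without the receptor. Each of the 4 groups (wild-type DMSO, wild-type BaP, c35 DMSO and c35 BaP) held 3 arrays, described by the study as biological replicates, and the members were taken by the array titles alone. The other 6 arrays carried RNA of the same lines after TCDD, a dioxin and AHR ligand, and entered only the shared estimate of the spread and 1 contrast between the ligands. All groups shared the medium, the serum and the vehicle. The c35 line is 1 mutant derivative of 1 parent, so the loss of DNA binding and any other difference between the lines cannot be told apart.

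In the classic model, the AHR is held in a cytosolic complex and, once a ligand such as BaP or TCDD binds it, moves to the nucleus, pairs with ARNT and binds DNA at a short core motif near target genes, among them the cytochrome P450 genes of the CYP1 family, although receptor can also be found in the nucleus without added ligand. BaP is itself turned over by these enzymes into reactive diol epoxides, which form DNA adducts, and into quinones, which cycle between redox states, whereas TCDD is hardly metabolized. Damaged DNA is read by the p53 pathway, oxidants and electrophiles by NRF2, unfolded protein and amino acid stress by ATF4 and CHOP, and acute signals by immediate early genes such as *Fos* and *Jun*.

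The expression values were the log2 signals that the authors deposited, made by robust multiarray averaging (RMA), so that a difference of 1 is a 2-fold change. The BaP response is the mean of the BaP arrays minus the mean of the DMSO arrays of a line, and the difference in response is the wild-type response minus the c35 response. A gene was called at a Benjamini-Hochberg adjusted p below 0.05 from limma and a difference above 1.5-fold, or in c35 cells at an adjusted p below 0.1. Values are those of the probe set with the highest mean for each of 18193 genes. Arrays of wild-type cells correlated at r = 0.991 to 0.997, arrays of c35 cells at r = 0.995 to 0.998 and arrays of different lines at r = 0.97 to 0.98. Of 10 hepatocyte markers, *Alb* and *Afp* were high in both lines (mean log2 signal on the DMSO arrays 13.64 and 12.11 in wild-type and 11.18 and 11.93 in c35 cells), whereas 4 of the 10, among them *Ahsg* and *Fgb*, lay below 5.651, the median of all probe sets, in both lines. Markers of other cell types were not uniformly low. Above the median of all probe sets lay 4 of 6 leukocyte genes in both lines, among them *Cd14* and *Cd68*, 1 of 5 endothelial, 5 of 6 fibroblast and, of 4 bile duct genes, 3 in wild-type and 4 in c35 cells. The pan-leukocyte gene *Ptprc* and the endothelial gene *Pecam1* were below it, with means of 2.93 and 4.15 in wild-type and 2.85 and 4.38 in c35 cells. Over the 5 lists, 0 markers were called in the difference in response. The unadjusted p was under 0.05 for 1 hepatocyte, 1 leukocyte, 0 endothelial, 2 fibroblast and 1 bile duct gene, against 7.75% of all genes higher and 6.78% lower.

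The c35 arrays did not sort by their labels at the genes that BaP raised in wild-type cells. Over 7 genes of the AHR battery that rose in wild-type cells, the median deviation from the mean of the 6 arrays of the line was 0.33, 0.24 and -0.37 on c35 DMSO replicates 1, 2 and 3. It was -0.21, -0.25 and 0.28 on c35 BaP replicates 1, 2 and 3. DMSO replicate 3 thus lay with BaP replicates 1 and 2, and BaP replicate 3 with DMSO replicates 1 and 2. The same arrays were high and low, over a smaller range, at 32 stress and damage genes outside the battery (0.10, 0.10 and -0.07 with DMSO and -0.03, -0.14 and 0.09 with BaP), whereas all genes stayed within -0.01 to 0.01 on these 6 arrays. On the wild-type arrays the battery ran from -1.09 to -1.02 with DMSO and from 0.99 to 1.14 with BaP, with no overlap. The genes were chosen because they rose on these same wild-type arrays, so that separation follows from the choice. The cause of the spread among the c35 arrays was not tested and the labels were kept. The main counts and medians that rest on these c35 arrays are given with and without them, and values of single genes mostly with all arrays.

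**Figure D1:**
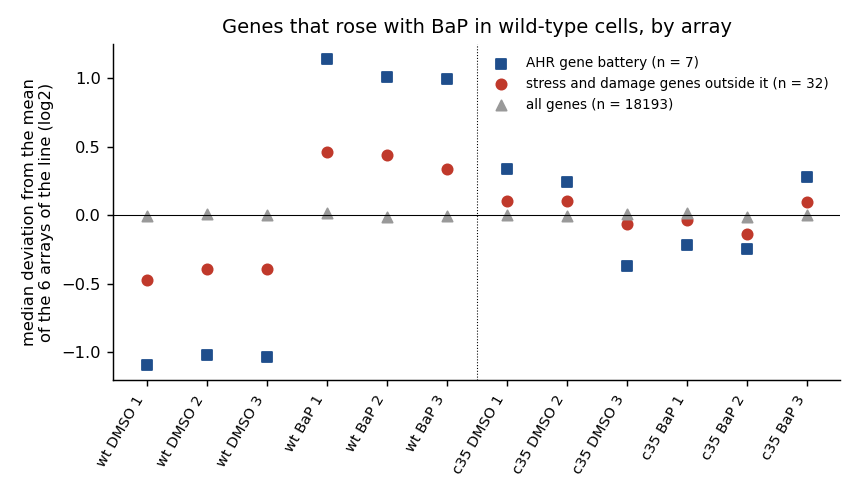
Median deviation (y axis, log2) from the mean of the 6 DMSO and BaP arrays of a line, for each array (x axis), over 7 battery genes and 32 further stress and damage genes that rose with BaP in wild-type cells and over all 18193 genes. Wild-type DMSO and BaP arrays separate, which follows from the choice of the genes. The arrays of c35 DMSO replicate 3 and c35 BaP replicate 3 each lie with the other treatment of their line.

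To place the responding genes on the genome, the promoter windows of RefSeq (build GRCm38.p6, 250 bases before to 50 bases after the start of transcription) were searched for GCGTG, the core motif of the AHR, and for TGACNNNGC, the core of the antioxidant response element that NRF2 binds, each on both strands. Matches were allowed to overlap. A gene counted as holding a motif if any of its windows did, so genes with more windows had more chances to be counted. Of 32851 single windows, 32.4% held GCGTG and 12.4% held TGACNNNGC. Of 14367 genes with a window, 6877 (47.9%) held GCGTG and 2317 (16.1%) held TGACNNNGC. Of 183 genes with a higher BaP response in wild-type cells, 133 had a window, of which 86 (64.7%) held GCGTG and 40 (30.1%) held TGACNNNGC. Of 60 genes with a lower response, 37 had a window, of which 24 (64.9%) held GCGTG, close to the share among the higher genes, and 7 (18.9%) held TGACNNNGC. Of 27 stress and damage genes with a window and a higher response in wild-type cells, 19 (70.4%) held GCGTG and 8 (29.6%) held TGACNNNGC. Among all 233 stress and damage genes with a window, 139 (59.7%) and 51 (21.9%) did. The p53 consensus was found in 0 of the 133 higher genes with a window, in 1 of the 37 lower genes and in 8 of all 14367 genes. These counts are a description of letters in 300 bases and no test was made.

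Windows of 6 genes are shown, picked after their values were seen, as examples of the classic targets (*Cyp1a1* and *Tiparp*), of a p53 target (*Btg2*) and of NRF2 targets (*Osgin1*, *Gclm* and *Srxn1*), which all responded more in wild-type than in c35 cells. They lie at chr9:57697363-57697662 (plus strand), chr3:65528197-65528496 (plus strand), chr1:134079106-134079405 (minus strand), chr8:119436897-119437196 (plus strand), chr3:122245307-122245606 (plus strand) and chr2:152105274-152105573 (plus strand), each spanning the start of the gene, and are written in the direction of transcription. Capitals mark GCGTG or its reverse complement CACGC, and in *Gclm* and *Srxn1* also TGACNNNGC read on the opposite strand. The first base of the GCGTG match lay 54 bases upstream of the start in *Cyp1a1*, 170 in *Tiparp*, 58 in *Btg2* and 92 in *Osgin1*.
Cyp1a1: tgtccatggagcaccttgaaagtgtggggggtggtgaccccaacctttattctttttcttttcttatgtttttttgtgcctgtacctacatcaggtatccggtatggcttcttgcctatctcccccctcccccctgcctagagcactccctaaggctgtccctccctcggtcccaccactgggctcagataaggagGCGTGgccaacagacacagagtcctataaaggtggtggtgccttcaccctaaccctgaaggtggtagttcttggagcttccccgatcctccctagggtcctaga
Tiparp: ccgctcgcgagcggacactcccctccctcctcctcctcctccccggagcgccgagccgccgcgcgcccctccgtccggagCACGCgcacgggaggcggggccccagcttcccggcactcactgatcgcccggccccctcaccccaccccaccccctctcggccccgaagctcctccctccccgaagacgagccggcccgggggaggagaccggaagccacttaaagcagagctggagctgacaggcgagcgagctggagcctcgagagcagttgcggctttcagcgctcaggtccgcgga
Btg2: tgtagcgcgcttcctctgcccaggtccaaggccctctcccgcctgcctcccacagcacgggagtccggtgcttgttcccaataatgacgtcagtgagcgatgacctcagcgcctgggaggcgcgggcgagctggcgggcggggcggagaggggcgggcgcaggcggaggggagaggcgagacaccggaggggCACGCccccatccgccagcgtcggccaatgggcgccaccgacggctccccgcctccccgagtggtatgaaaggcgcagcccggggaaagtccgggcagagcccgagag
Osgin1: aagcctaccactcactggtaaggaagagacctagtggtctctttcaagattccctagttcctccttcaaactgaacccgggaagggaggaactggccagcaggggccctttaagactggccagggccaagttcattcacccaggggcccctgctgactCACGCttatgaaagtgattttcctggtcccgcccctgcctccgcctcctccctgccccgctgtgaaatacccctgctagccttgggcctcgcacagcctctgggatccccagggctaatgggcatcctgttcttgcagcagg
Gclm: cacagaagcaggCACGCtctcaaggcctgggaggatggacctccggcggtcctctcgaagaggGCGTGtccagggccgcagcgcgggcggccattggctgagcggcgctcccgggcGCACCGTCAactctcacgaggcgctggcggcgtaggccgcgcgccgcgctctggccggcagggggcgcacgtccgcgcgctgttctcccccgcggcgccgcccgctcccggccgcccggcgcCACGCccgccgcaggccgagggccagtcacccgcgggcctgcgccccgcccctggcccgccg
Srxn1: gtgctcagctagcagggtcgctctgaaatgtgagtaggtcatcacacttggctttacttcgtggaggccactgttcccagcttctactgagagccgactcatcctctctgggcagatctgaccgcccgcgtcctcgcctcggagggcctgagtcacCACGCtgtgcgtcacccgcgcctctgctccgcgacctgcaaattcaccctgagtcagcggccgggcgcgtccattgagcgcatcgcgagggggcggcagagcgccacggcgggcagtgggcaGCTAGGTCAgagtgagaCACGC

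Across all genes the response to BaP differed between the lines at 183 genes with a higher response in wild-type cells, or 1.01% of 18193, and at 60 with a lower one, or 0.33%. In wild-type cells alone BaP raised 161 genes (0.885%) and lowered 79 (0.434%). The wild-type DMSO and BaP arrays did not overlap at 160 of the 161 raised genes, so such a separation adds little to the call. In c35 cells limma called 0 genes, or 0%, with a lowest adjusted p of 0.999825 and 1827 probe sets (4.06% of 45037) at an unadjusted p under 0.05. The 95% interval of the c35 response lay within 1.5-fold in either direction for 17925 genes, or 98.5%. The wild-type response and the difference between the lines share the wild-type arrays, so the 2 sets of counts are not independent, whereas the c35 response uses no wild-type array.

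**Figure D2:**
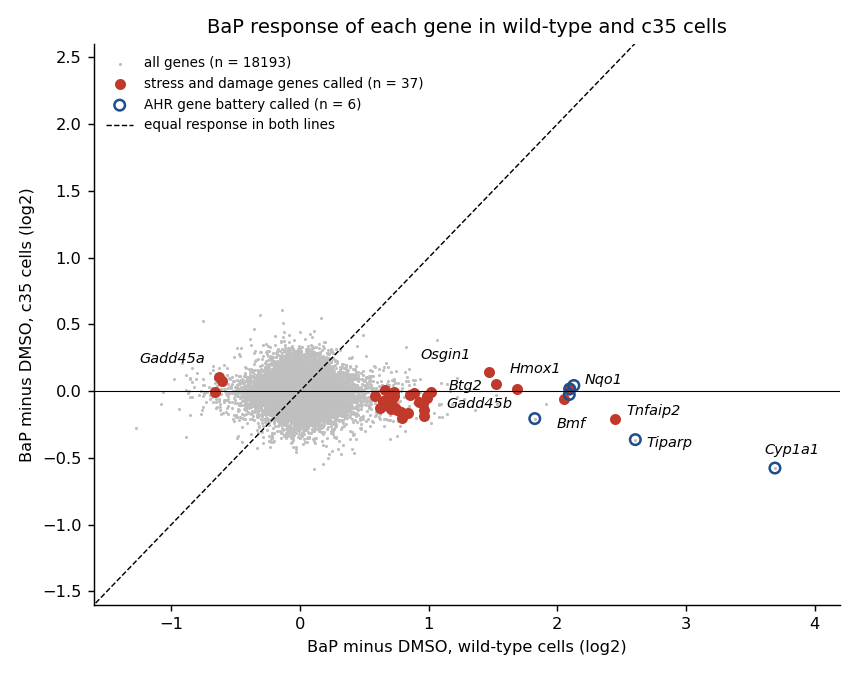
BaP response in c35 cells (y axis, log2) against the response in wild-type cells (x axis, log2) for 18193 genes in grey, 37 called stress and damage genes in red and 6 called battery genes ringed in blue, with a dashed line where responses would be equal. The called genes lie along the horizontal axis, with c35 responses between -0.58 and 0.14.

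A share of the stress and damage genes rose with BaP in wild-type cells, and none was called in c35 cells, where 0 of all 18193 genes were called. The 12 lists were written with earlier results of these data known. Their shares beside all genes, here and for single lists, are therefore no independent evidence. The lists held 301 genes, of which 283 were measured. BaP raised 33 of them (11.7%, against 0.885% of all genes) in wild-type cells and lowered 3 (against 0.434%). The response was higher in wild-type than in c35 cells for 34 (12%, against 1.01% of all genes) and lower for 3 (1.06%, against 0.33%). In c35 cells 0 of the 283 were called and 10 had an unadjusted p under 0.05, against 3.53% of all genes. The median response of the 33 that rose was 0.79 in wild-type cells (range 0.62 to 2.45) and -0.06 in c35 cells (range -0.21 to 0.14). In c35 cells 33 of 33 had a 95% interval within 1.5-fold, close to the 98.5% of all genes. So did 152 of the 161 genes of any kind that rose in wild-type cells. The c35 response of the risen stress and damage genes was below 0 for 28 of 33, where 50.6% of all genes were below 0. It was below 0 for 117 of the 161 risen genes of any kind. Without c35 BaP replicate 2 the count below 0 was 17 of 33 and the median -0.0023, and without c35 DMSO replicate 3 and BaP replicate 3 together it was 30 of 34 with a median of -0.22, so that the size of this shift depended on which c35 arrays entered.

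Leaving out c35 arrays moved how closely the c35 response was bounded. Without c35 DMSO replicate 3 and BaP replicate 3, 25 of 34 risen stress and damage genes kept an interval within 1.5-fold, and limma called 19 genes in c35 cells, of which 16 were lower with BaP, among them *Cyp1a1*, *Tiparp* and *Xdh* of the battery and 1 stress and damage gene, *Nr4a1* (fell by 0.60 on the log2 scale, adjusted p = 0.01352). Without c35 DMSO replicate 3 alone it called 2 genes, both higher and neither of them in a stress list or the battery. These arrays were chosen for their own signals, so the calls describe the remaining arrays. The number of stress and damage genes called in the difference between the lines ran from 28 to 41 as each array was left out in turn.

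**Figure D3:**
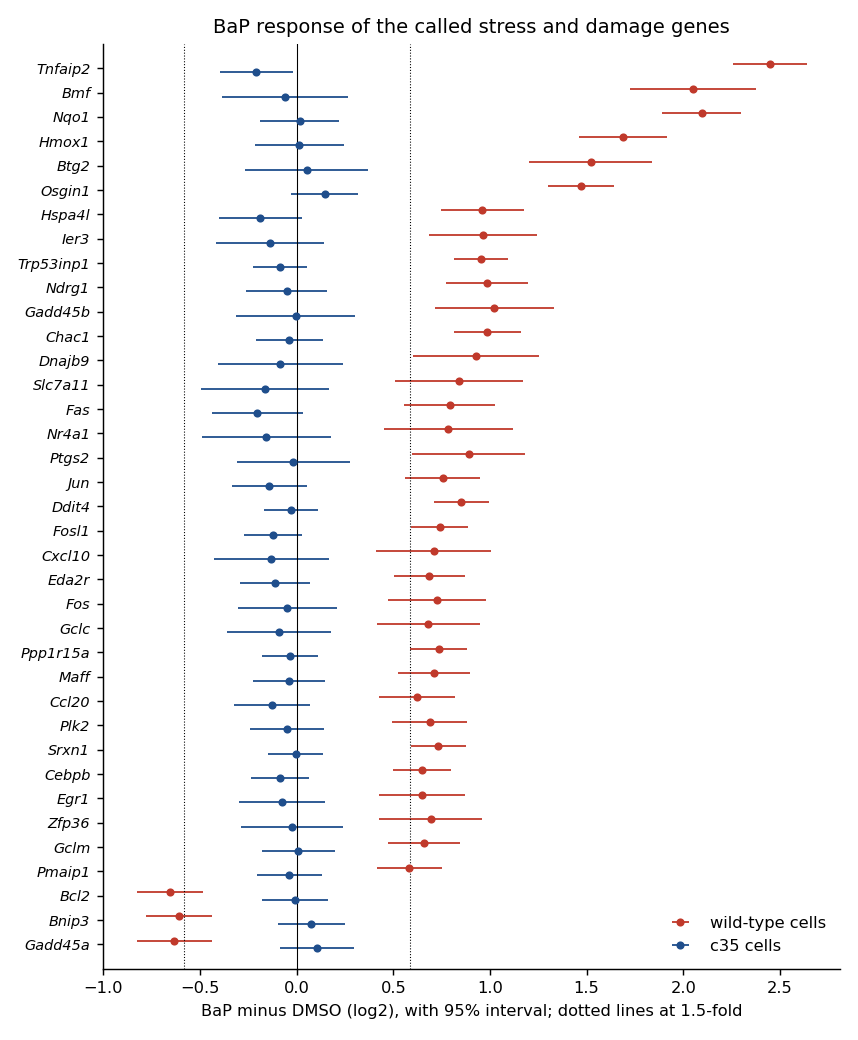
BaP minus DMSO (x axis, log2) in wild-type cells (red) and c35 cells (blue) for the 34 stress and damage genes with a higher and the 3 with a lower response in wild-type cells, with limma estimates as points and 95% intervals as bars. No blue bar crosses a dotted line at 1.5-fold, beside 98.5% of all genes with a c35 interval within these lines. The red points lie between -0.66 and 2.45.

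The classic AHR battery, the genes of xenobiotic metabolism that the receptor is best known for, responded more in wild-type than in c35 cells. *Cyp1a1*, the P450 that activates BaP, had log2 signals of 9.61, 9.78 and 9.81 on the wild-type DMSO arrays and 13.44, 13.47 and 13.37 with BaP. On the c35 arrays it was 8.32, 8.34 and 4.87 with DMSO and 6.23, 5.25 and 8.32 with BaP. The wild-type groups lay far apart, while the c35 groups overlapped and spread widely. The response was 3.69 in wild-type and -0.58 in c35 cells (95% interval -1.98 to 0.83), a difference of 4.27 (standard error 0.95, adjusted p = 0.022) that missed the threshold under 6 of 23 alternatives, with an adjusted p of up to 0.09039. Over the alternatives the difference ran from 3.59 to 6.28. Without c35 DMSO replicate 3 and BaP replicate 3 together the c35 response was -2.59. Of 9 measured battery genes, 7 (77.8%, against 0.885% of all genes) rose with BaP in wild-type cells. In the difference 6 (66.7%, against 1.01%) were called. Of the 7 that rose, *Cyp1b1* was not called, with a difference of 1.03 (standard error 0.30, adjusted p = 0.103), with c35 DMSO replicates at 6.09, 5.86 and 5.02.

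*Aldh3a1*, an aldehyde dehydrogenase gene, differed by 2.09 between the lines (standard error 0.14, adjusted p = 5.1e-08). *Cyp2s1*, another P450 gene, differed by 2.12 (standard error 0.11, adjusted p = 1.56e-09), and its c35 response of -0.03 was bounded to between -0.19 and 0.14. *Xdh*, which encodes xanthine dehydrogenase, differed by 2.03, and *Tiparp*, whose ADP-ribosylating product dampens AHR signalling, by 2.97. In none of these 4 genes did wild-type DMSO and BaP arrays overlap, as at 160 of the 161 genes that BaP raised. *Ahr* itself was lower on the c35 arrays (9.24 to 9.59) than on the wild-type arrays (10.25 to 10.55), and its difference in response was -0.14 (adjusted p = 0.686). Of 9 measured genes of AHR and its partners, among them *Arnt*, 0 were called in either line or in the difference. Among all genes 1.01% were called higher and 0.33% lower in the difference. The unadjusted p was under 0.05 for 0 of the 9 in the difference, against 7.75% of all genes higher and 6.78% lower. For 8 of the 9 the interval of the difference lay within 1.5-fold, against 80.2% of all genes.

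The study named 13 genes from these arrays, so their direction here is not independent evidence. Of these, 11 rose (84.6%, against 0.885% of all genes) and 1 fell (against 0.434%) with BaP in wild-type cells. In the difference between the lines 9 were higher (69.2%, against 1.01%) and 1 lower (7.69%, against 0.33%). *Adh7*, an alcohol dehydrogenase gene, differed by 1.55 (adjusted p = 0.000295), and *Vegfc*, a lymphatic growth factor gene, by -0.65 (adjusted p = 0.00153). *Adh1* and *Mgst2*, an alcohol dehydrogenase and a microsomal glutathione transferase gene, were not called, at 0.42 (adjusted p = 0.242) and 0.79 (adjusted p = 0.144).

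Of 24 measured genes of BaP activation and conjugation, 3 (12.5%, against 0.885% of all genes) rose in wild-type cells and 2 (8.33%, against 1.01%), *Cyp1a1* and *Abcc4*, were called in the difference. *Abcc4*, an efflux pump gene, was at 10.59, 10.60 and 10.59 on the wild-type DMSO arrays and 11.23, 11.34 and 11.26 with BaP. On the c35 arrays it was at 10.86, 10.82 and 10.59 without and 10.54, 10.54 and 10.55 after BaP. Its difference was 0.90 (standard error 0.09, adjusted p = 1.86e-05). The c35 estimate was below 0, with an interval of -0.35 to -0.08, but was not called after adjustment (limma adjusted p = 0.9998). On c35 DMSO replicate 3 *Abcc4* was close to the c35 BaP arrays.

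Antioxidant genes of NRF2 were among the groups with the most members called. Of 27 measured, 8 rose with BaP in wild-type cells (29.6%, against 0.885% of all genes). The same number, 8 (29.6%, against 1.01% of all genes), had a higher response than in c35 cells. *Hmox1*, which encodes heme oxygenase, was at 7.85, 8.37 and 8.44 on the wild-type DMSO arrays and 10.02, 9.94 and 9.76 with BaP. In c35 cells it was at 8.79, 8.82 and 8.87 without and 8.91, 8.75 and 8.86 after BaP. The wild-type groups did not overlap, and the 6 c35 arrays fell between them in a narrow range. *Hmox1* rose 3.22-fold in wild-type cells, its c35 response was 0.01 (95% interval -0.22 to 0.24), and the difference was 1.67 (standard error 0.16, adjusted p = 4.89e-06).

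*Osgin1*, an oxidative stress-induced growth inhibitor, was at 7.75, 7.80 and 7.64 on the wild-type DMSO arrays and reached 9.30, 9.24 and 9.07 with BaP. On the c35 arrays its signals were 7.33, 7.19 and 7.24 with DMSO and 7.47, 7.37 and 7.35 with BaP. This was the highest c35 response of the 33 risen stress and damage genes, 0.14, and its interval of -0.03 to 0.31 included 0. The difference was 1.33 (standard error 0.12, adjusted p = 2.39e-06). *Nqo1*, a quinone reductase gene that belongs to both the AHR battery and this list, differed by 2.08 (standard error 0.14, adjusted p = 3.56e-08). The genes of glutathione supply differed by less. *Slc7a11*, the cystine carrier, differed by 1.001 (adjusted p = 0.0226), and *Gclc*, the catalytic subunit of glutamate-cysteine ligase, by 0.77 (adjusted p = 0.0314), with adjusted p over the alternatives from 8.189e-05 to 0.09039 and from 0.001274 to 0.101. The remaining 3, *Maff*, a small MAF transcription factor gene (0.75), *Srxn1*, the sulfiredoxin gene (0.74, not called when its probe sets were averaged), and *Gclm*, the modifier subunit (0.65), passed as well, of which the last 2 are named after their values were seen. *Gsr* and *Txnrd1*, the glutathione and thioredoxin reductase genes, chosen in the same way, had differences of 0.40 (adjusted p = 0.0672) and 0.39 (adjusted p = 0.142), and *Nfe2l2*, the gene of NRF2 itself, 0.37 (adjusted p = 0.295). Of 6 measured metallothionein and metal stress genes 0 were called in the difference, against 1.01% of all genes higher and 0.33% lower. At an unadjusted p under 0.05 from limma 1 was higher (16.7%, against 7.75% of all genes).

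**Figure D4:**
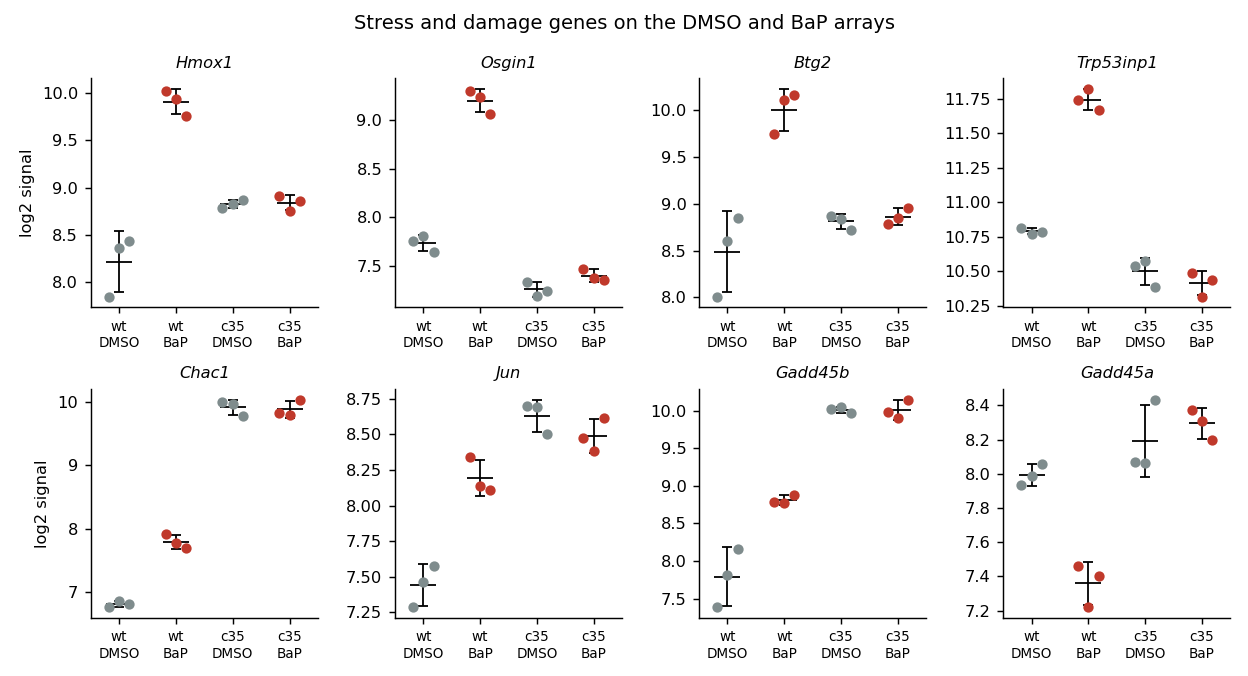
Log2 signal (y axis, a separate range for each gene) of 8 stress and damage genes on the 12 DMSO and BaP arrays in 4 groups (x axis), with arrays as points and the mean ± SD of 3 arrays as bars. In each panel the wild-type DMSO and BaP arrays separate, and c35 arrays of both treatments lie together, above the wild-type BaP arrays for Chac1, Gadd45b, Jun and Gadd45a, the last of which fell with BaP in wild-type cells. The genes shown were all called in wild-type cells, so their separation there follows from that call.

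Targets of p53 had calls in both directions. None was called in c35 cells, where 0 of all 18193 genes were called. Of 33 measured, 6 rose (18.2%, against 0.885% of all genes) and 1 fell (against 0.434%) with BaP in wild-type cells. The response was higher than in c35 cells for 7 (21.2%, against 1.01% of all genes) and lower for 1 (3.03%, against 0.33%). *Btg2*, an antiproliferative gene, was at 8.01, 8.60 and 8.85 on the wild-type DMSO arrays and reached 9.75, 10.11 and 10.16 with BaP. The c35 signals were 8.87, 8.84 and 8.72 with DMSO and 8.78, 8.85 and 8.96 with BaP. The wild-type DMSO arrays were spread out but stayed below all BaP arrays, and the c35 arrays overlapped. The difference was 1.47 (standard error 0.22, adjusted p = 0.000667), with a c35 interval of -0.27 to 0.37.

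*Trp53inp1*, which encodes a p53-induced nuclear protein, was at 10.81, 10.77 and 10.79 on the wild-type DMSO arrays and reached 11.74, 11.82 and 11.67 with BaP. In c35 cells it was at 10.54, 10.57 and 10.39 without and 10.49, 10.32 and 10.43 after BaP. Its replicates were tighter than those of *Btg2*, and the difference of 1.04 (standard error 0.09, adjusted p = 3.99e-06) came from 1 of 2 probe sets, the other of which was not called. *Fas*, a death receptor gene, differed by 0.995 (standard error 0.16, adjusted p = 0.00161). *Ddit4*, an inhibitor of mTOR signalling that also belongs to the ATF4 list, differed by 0.88, *Eda2r*, a receptor gene of the tumor necrosis factor family, by 0.80, and *Plk2*, a polo-like kinase gene, by 0.74, with adjusted p from 2.41e-05 to 0.0038. The other of 2 *Plk2* probe sets gave a difference of 0.05 and was not called, and averaging the 2 gave 0.39, also not called. *Pmaip1*, which encodes the proapoptotic protein NOXA, differed by 0.62 (adjusted p = 0.00507), although its wild-type rise of 0.58 lay just under 1.5-fold. *Cdkn1a* and *Mdm2*, textbook p53 targets named here after their values were seen, were below the minimum change or the threshold, at 0.52 (adjusted p = 0.00161) and 0.43 (adjusted p = 0.0682). At an adjusted p under 0.05 with no minimum change, 12 of the 33 (36.4%) were higher and 1 was lower, against 1.54% and 0.775% of all genes.

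*Gadd45a* was the member that went the other way. It was at 7.93, 7.99 and 8.06 on the wild-type DMSO arrays and fell to 7.46, 7.22 and 7.40 with BaP, and at 8.07, 8.07 and 8.43 without and 8.38, 8.31 and 8.20 after BaP in c35 cells. The wild-type groups separated downward and the c35 groups overlapped, with a difference of -0.74 (standard error 0.13, adjusted p = 0.00351). Its relative *Gadd45b*, another growth arrest and damage gene, rose from 7.38, 7.82 and 8.16 to 8.78, 8.77 and 8.88 in wild-type cells, while c35 arrays ran from 9.90 to 10.15 under both treatments. The difference was 1.03 (standard error 0.21, adjusted p = 0.0111). The 4 Gadd45 family genes of the list thus held 1 call in each direction (25% each, against 1.01% of all genes higher and 0.33% lower).

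No gene of DNA repair was called, where 1.01% of all genes were called higher and 0.33% lower in the difference. Of 54 measured repair and checkpoint genes, 0 were called in wild-type cells, in c35 cells or in the difference, where limma gave 3 higher (5.56%, against 7.75% of all genes) and 9 lower (16.7%, against 6.78%) at an unadjusted p under 0.05. For 47 of the 54 (87%) the 95% interval of the difference lay within 1.5-fold, beside 80.2% of all genes. The range of their differences was -0.64 to 0.52. At an adjusted p under 0.05 with no minimum change 1 of them was higher, *Ercc5*, a nucleotide excision repair endonuclease gene that is also on the p53 list and is named after its value was seen (0.52, adjusted p = 0.02955). Of 23 genes of cell cycle arrest and G1 cyclins, *Btg2* alone was called (4.35%, against 1.01% of all genes higher).

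In the BCL2 family, 15 genes were measured and calls ran both ways. In the difference 2 were higher (13.3%, against 1.01% of all genes) and 2 lower (13.3%, against 0.33%). *Bmf*, a proapoptotic BH3-only gene, was at 4.95, 4.87 and 4.74 on the wild-type DMSO arrays and reached 7.03, 6.66 and 7.02 with BaP. The c35 arrays read 4.67, 4.98 and 4.21 with DMSO and 4.34, 4.61 and 4.72 with BaP. The wild-type BaP arrays stood alone, with a difference of 2.11 (standard error 0.22, adjusted p = 1.86e-05), which rests on 1 of 3 probe sets. That probe set lay below the median of all probe sets in the other 3 groups (means 4.85, 4.62 and 4.56), was left out when dim probe sets were dropped, and averaging the 3 brought the difference to 0.81, still called. *Bcl2*, the antiapoptotic founder of the family, responded lower in wild-type cells by a difference of -0.65 (adjusted p = 0.004, not called when its probe sets were averaged), and *Bnip3*, a mitophagy receptor gene also induced by hypoxia, by -0.68 (adjusted p = 0.00275). Of 20 measured hypoxia response genes, 1 (5%, against 1.01% of all genes) was higher, *Ndrg1* (1.04, adjusted p = 0.00035). Another 1 (5%, against 0.33%) was lower, *Bnip3*.

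Genes of the ATF4-CHOP and unfolded protein response contributed 5 of 35 measured (14.3%, against 1.01% of all genes), all with a higher response in wild-type cells. *Chac1*, which encodes a glutathione-degrading enzyme, was at 6.76, 6.86 and 6.80 on the wild-type DMSO arrays and reached 7.91, 7.78 and 7.69 with BaP. Its c35 signals were 10.002, 9.98 and 9.79 with DMSO and 9.82, 9.79 and 10.04 with BaP. All c35 arrays were thus above all wild-type arrays, also above those with BaP. The difference in response was 1.02 (standard error 0.12, adjusted p = 4.36e-05). *Dnajb9*, an ER chaperone gene, differed by 1.01 (adjusted p = 0.0183), *Ppp1r15a*, also known as GADD34, by 0.77 (adjusted p = 0.000194), and *Cebpb*, a C/EBP transcription factor gene, by 0.73 (adjusted p = 0.000368). *Ddit3*, which encodes CHOP, and *Atf3*, both named after their values were seen, had differences of -0.12 (adjusted p = 0.744) and 0.25 (adjusted p = 0.529). Of 23 heat shock genes, *Hspa4l* alone (4.35%, against 1.01% of all genes higher) was called, with a difference of 1.15 (adjusted p = 0.000156).

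Immediate early genes, of which 30 were measured, held 9 calls (30%, against 1.01% of all genes), all higher. *Jun*, a subunit of the AP-1 factor, was at 7.28, 7.46 and 7.57 on the wild-type DMSO arrays and reached 8.34, 8.14 and 8.11 with BaP. In c35 cells it was at 8.70, 8.69 and 8.50 without and 8.47, 8.38 and 8.62 after BaP. The wild-type groups separated, and c35 arrays of both treatments lay above the wild-type BaP arrays. The difference was 0.90 (standard error 0.13, adjusted p = 0.000676). *Fosl1*, another AP-1 subunit gene, differed by 0.86 (adjusted p = 5.75e-05) and *Ier3*, an early response gene of survival, by 1.10 (adjusted p = 0.00275). *Fos* (0.77, adjusted p = 0.0224) and *Nr4a1*, an orphan nuclear receptor gene (0.94, adjusted p = 0.035), were less secure, missing the threshold under 6 and 11 of 23 alternatives. *Egr1* (0.72, adjusted p = 0.0126) and *Zfp36* (0.72, adjusted p = 0.0468), named after their values were seen, missed it under 2 and 12.

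Of 27 measured NF-kB and inflammatory genes, 4 were called (14.8%, against 1.01% of all genes), all higher. By the probe set with the highest mean, *Tnfaip2* had the largest difference of all stress and damage genes, 2.66 (standard error 0.13, adjusted p = 3.89e-10). Of its 3 probe sets 2 were called, and the lowest difference among the 3 was -0.0042. Over 23 alternatives the difference ran from 1.48 to 2.86 and kept its call. *Tnfaip2* was at 7.10, 7.00 and 6.93 on the wild-type DMSO arrays and reached 9.53, 9.42 and 9.44 with BaP. On the c35 arrays its signals were 9.62, 9.67 and 9.34 with DMSO and 9.20, 9.27 and 9.54 with BaP. The c35 arrays, with or without BaP, thus lay around the level of the wild-type BaP arrays and above all wild-type DMSO arrays. The other 3 were *Ptgs2*, the cyclooxygenase-2 gene (0.91, adjusted p = 0.0188), *Cxcl10* (0.84, adjusted p = 0.0354) and *Ccl20* (0.75, adjusted p = 0.00351), both chemokine genes. *Ptgs2* signals stayed between 2.39 and 3.61, below the median of all probe sets, and *Cxcl10* missed the threshold under 9 of 23 alternatives.

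Levels without ligand differed between the lines at many of these genes. Of the 33 stress and damage genes that rose with BaP in wild-type cells, 24 had a higher mean on the c35 DMSO than on the wild-type DMSO arrays, and for 10 the c35 DMSO mean was above the wild-type BaP mean. These numbers were 91 and 27 of the 161 risen genes of all kinds. Immediate early genes held 5 of their 9 risen members in the second class, and p53 targets 0 of 6. The part of these levels in the c35 responses was not tested. For the other 23 risen stress and damage genes, among them *Hmox1*, *Osgin1*, *Btg2* and *Trp53inp1*, the c35 DMSO mean lay below the wild-type BaP mean.

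With unnamed clones passed over, the largest differences among all called genes belonged mostly to the battery and stress lists. These lists were written with earlier results of these data known, so this overlap is no independent evidence. The 10 highest were *Cyp1a1*, *Tiparp*, *Tnfaip2*, *Cyp2s1*, *Bmf*, *Aldh3a1*, *Nqo1*, *Xdh*, *Arrdc3* and *Hmox1*, of which *Arrdc3*, an arrestin-domain gene, was in neither (2.01, adjusted p = 0.000325). The 10 lowest were in no list used here, and led by the noncoding RNA gene *Neat1* (-1.28, adjusted p = 0.00428). *Neat1* was at 10.43, 9.98 and 10.04 on the wild-type DMSO arrays and fell to 9.14, 9.52 and 9.52 with BaP. In c35 cells, where its level was far lower, it was at 5.65, 5.45 and 4.89 without and 5.92, 5.79 and 5.85 after BaP. It went down in one line and its c35 response was 0.53 (95% interval 0.19 to 0.87, not called after adjustment), so part of the difference came from c35 arrays, with DMSO replicate 3 the lowest. *Rasgef1b*, *Palmd*, *Chst8* and *Sh2d4a* and the transcription factor genes *Ikzf2*, *Foxp1* and *Ehf* followed, with differences of -1.13 to -0.96, and *Ror1*, a receptor kinase gene, and *Sntb1*, a syntrophin gene, with -0.99 and -0.93. *Chst8* and *Ror1*, and the others of these 9, had c35 responses between -0.28 and 0.21.

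BaP and TCDD act on the same receptor, and the contrast between their dependences was tested directly, without any DMSO array. It asks for which genes the difference in response between the lines was not the same for the ligands. It passed for 9 genes (0.0495% of 18193) with a positive contrast and 8 (0.044%) with a negative one, and among 283 stress and damage genes for 4 and 1. The contrast is the BaP difference minus the TCDD difference with its sign, so a negative value can also come from a gene that BaP lowered more than TCDD did in wild-type cells relative to c35 cells. *Hmox1* stood first. Its difference between the lines was 1.67 for BaP and 0.24 for TCDD (adjusted p = 0.818), and the contrast between the ligands was 1.44 (standard error 0.16, adjusted p = 0.000309). *Osgin1*, at 1.33 for BaP and 0.55 for TCDD, gave a contrast of 0.78 (adjusted p = 0.00914), and *Nqo1*, at 2.08 and 1.35, one of 0.73 (adjusted p = 0.0408). *Mdm2*, the ubiquitin ligase gene of p53, gave 0.62 (adjusted p = 0.0402), with values of 0.43 for BaP and -0.19 for TCDD that were each not called. *Bnip3* was the member with a negative contrast, from a response to BaP that was lower in wild-type cells, at -0.68 for BaP and 0.01 for TCDD (contrast -0.70, adjusted p = 0.0254).

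*Trp53inp1* (0.55, adjusted p = 0.0266), *Srxn1* (0.53, adjusted p = 0.0344) and *Fosl1* (0.56, adjusted p = 0.0344) passed the adjusted p but not the minimum change in this contrast. For *Btg2* it was 0.98 (adjusted p = 0.1). At the other end *Ccl20* gave 0.00, *Maff* 0.11, *Hspa4l* 0.12 and *Ddit4* 0.18, with adjusted p from 0.648 to 0.996 and standard errors of 0.10 to 0.15, so the ligands were not told apart at these genes. The 5 highest contrasts were those of *Hmox1*, *Vasn* (0.88), *Slc19a2*, a thiamine carrier gene (0.82), *Cyp2s1* (0.82) and the microRNA host gene *Mir22hg* (0.80). The 5 lowest were those of *Creb5* (-1.13), *Sntb1* (-1.06), *Ikzf2* (-0.90), *Foxp1* (-0.84) and *Ror1* (-0.83). Of these, *Sntb1*, *Ikzf2*, *Foxp1* and *Ror1* had BaP differences of -0.93, -1.07, -1.02 and -0.99 beside TCDD differences of 0.12, -0.18, -0.18 and -0.16, so the larger difference between the lines was the one for BaP. *Creb5*, a CREB family factor gene, had the larger difference for TCDD: it was not called in the BaP difference (-0.12, adjusted p = 0.88) and had a TCDD difference of 1.01 (adjusted p = 0.0177). The probe sets of *Creb5*, *Sntb1* and *Ccl20* were among those left out when dim probe sets were dropped. Averaging the probe sets of a gene took the call in the BaP difference from *Sntb1* and *Ror1*. The number of genes called in this contrast, counted over any probe set, was 22 and ran from 9 to 37 when single arrays were left out, lowest without wild-type BaP replicate 3, wild-type TCDD replicate 2 or c35 TCDD replicate 3 and highest without wild-type DMSO replicate 1, whose removal changes only the shared spread.

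**Figure D5:**
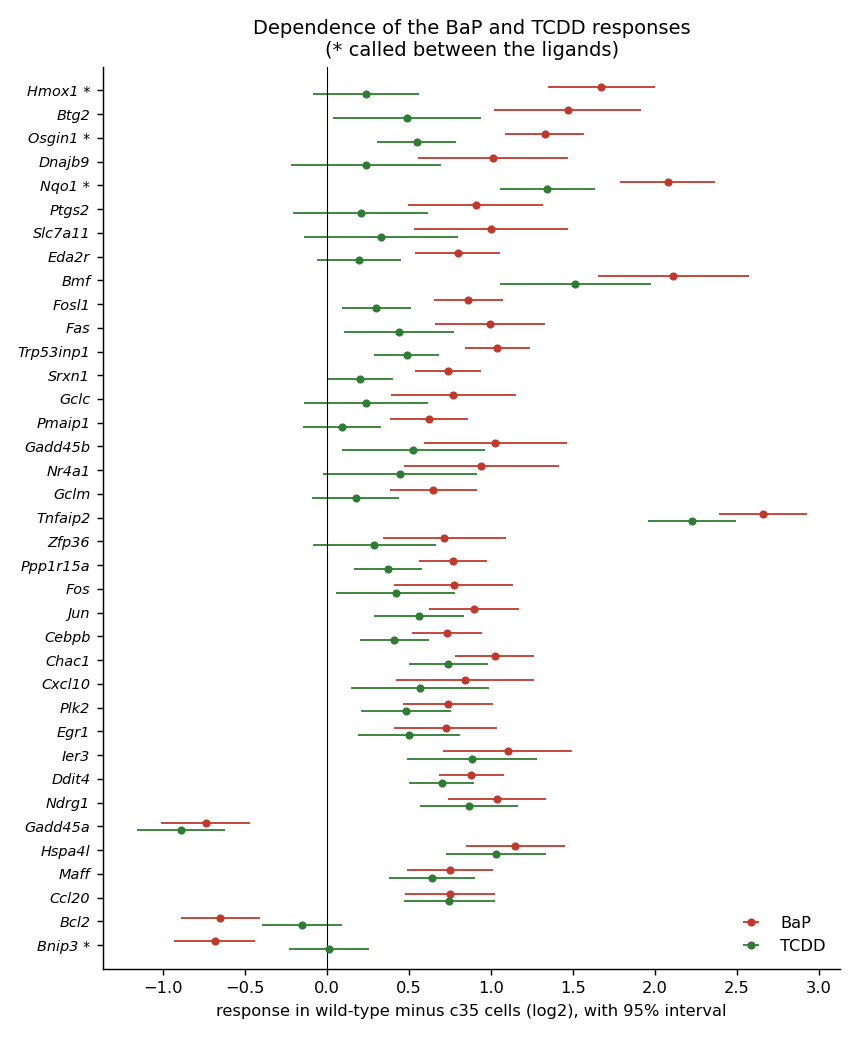
Response in wild-type minus c35 cells (x axis, log2) to BaP (red) and TCDD (green) for the 37 called stress and damage genes, ordered by the contrast between the ligands, with limma estimates as points and 95% intervals as bars and an asterisk where the contrast was called. Hmox1 lies at the top, at 1.67 for BaP and 0.24 for TCDD, and Bnip3 at the bottom. Both ligands share the DMSO arrays, so agreement between the colors is no independent evidence.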

How the data were processed

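Total RNA of 18 samples was hybridized to Affymetrix Mouse Genome arrays. The authors deposited log2 signals in a single table, made by RMA per the submitters' processing notes; its version and the build of the array annotation are not given in the sources used here. Values were used as deposited. The 64 Affymetrix control features among 45101 probe sets were dropped. Gene symbols were read from the annotation of the array platform, where 34945 of 45037 probe sets had 1 symbol, 932 had several and named no gene, and 9160 had none. A list gene without such a probe set was not analysed here.

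Group means were estimated from all 18 arrays together in limma 3.58.1 (R 4.3.3), with eBayes and an intensity trend, after the study's criteria of an adjusted p under 0.05 and a change above 1.5-fold; c35 cells had the looser 0.1. Contrasts were the BaP response in each line, their difference, and the contrast of that difference between the ligands. Adjustment was over the 45037 probe sets of each contrast. Array intensities carry no read depth, and the 3 arrays per group limit the precision. Where nothing beyond the study's word says that replicates came from separate cultures, p-values measure only the spread between arrays. The fit was tested on simulated data.

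The members, gene lists and tests were chosen with earlier results of these data known. The rule for named genes took the 13 genes that the study names from these arrays and *Ahr*, up to 6 called genes per list, the 10 highest and 10 lowest differences and the 5 in each direction of the contrast between ligands; others are marked. Motifs were searched with pandas 2.3.3 in RefSeq windows; figures were drawn with matplotlib 3.10.9. The alternatives were the 12 DMSO and BaP arrays alone, no trend, quantile normalization, median centring, no dim probe sets, array weights, a covariate for the 3' to 5' signal gap of *Actb*, the replicate block, averaging the probe sets of each gene, no minimum change, and arrays left out. Leaving out TCDD arrays was added after seeing the data.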

Additional observations from a re-analysis of the deposited data

Results flagged for a closer look

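The BaP response differed between wild-type and c35 cells, by the test of the difference itself in limma, for 313 genes counted over any probe set and for the named genes below, given as wild-type minus c35 on the log2 scale. The c35 group is 1 mutant line, so the receptor and other differences between the lines cannot be told apart.

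For xenobiotic metabolism and the battery the values were *Cyp1a1* 4.27, *Tiparp* 2.97, *Cyp2s1* 2.12, *Aldh3a1* 2.09, *Nqo1* 2.08, *Xdh* 2.03, *Adh7* 1.55 and *Abcc4* 0.90. For antioxidant genes they were *Hmox1* 1.67, *Osgin1* 1.33, *Slc7a11* 1.001, *Gclc* 0.77, *Maff* 0.75, *Srxn1* 0.74 and *Gclm* 0.65. For p53 targets, the Gadd45 family and the BCL2 family they were *Btg2* 1.47, *Trp53inp1* 1.04, *Fas* 0.995, *Ddit4* 0.88, *Eda2r* 0.80, *Plk2* 0.74, *Pmaip1* 0.62, *Gadd45b* 1.03, *Gadd45a* -0.74, *Bmf* 2.11, *Bcl2* -0.65 and *Bnip3* -0.68. For protein and heat stress genes they were *Chac1* 1.02, *Dnajb9* 1.01, *Ppp1r15a* 0.77, *Cebpb* 0.73 and *Hspa4l* 1.15.

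For immediate early genes the values were *Ier3* 1.10, *Nr4a1* 0.94, *Jun* 0.90, *Fosl1* 0.86, *Fos* 0.77, *Egr1* 0.72 and *Zfp36* 0.72. For inflammatory and hypoxia genes they were *Tnfaip2* 2.66, *Ptgs2* 0.91, *Cxcl10* 0.84, *Ccl20* 0.75 and *Ndrg1* 1.04. Further genes with a higher response in wild-type cells were *Arrdc3* 2.01, *Vasn* 0.94, *Slc19a2* 0.86 and *Mir22hg* 0.99. Those with a lower one were *Neat1* -1.28, *Rasgef1b* -1.13, *Ikzf2* -1.07, *Palmd* -1.06, *Foxp1* -1.02, *Ehf* -1.01, *Ror1* -0.99, *Chst8* -0.98, *Sh2d4a* -0.96, *Sntb1* -0.93 and *Vegfc* -0.65.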

How the results depend on the processing

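The number of genes called over any probe set was 313 for the difference in BaP response between the lines, 320 for BaP in wild-type cells, 0 for BaP in c35 cells and 22 for the contrast between the ligands. Averaging the probe sets of each gene, the first 2 counts were 189 (150 higher and 39 lower) and 177 (132 and 45). With no minimum change they were 530 (340 higher) and 1473 (729 higher). The contrast between the ligands gave 9 genes without the trend and 58 with array weights (26 higher and 32 lower). With the 3' to 5' signal gap of *Actb* as a covariate the counts, in the order above, were 339, 338, 0 and 30, with 38 stress and damage genes. Without c35 DMSO replicate 3 and BaP replicate 3 together, 19 genes were called in c35 cells and 439 in the difference, with 44 stress and damage genes. Leaving out each array in turn gave 229 (without c35 DMSO replicate 1) to 410 (without c35 DMSO replicate 3) genes for the difference, 285 to 446 in wild-type cells, 0 to 2 (without c35 DMSO replicate 3) in c35 cells, 28 to 41 stress and damage genes, and 9 to 37 for the contrast between the ligands, where leaving out the TCDD arrays was chosen after seeing the data. The cause of these changes was not tested.

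The arrays share replicate numbers, and same-numbered arrays of a line did not deviate together (median r = -0.0173, above 0.1 for 1 of 6 pairs). With the replicate number as a block the counts were 309, 322, 0 and 17, with 36 stress and damage genes, and the paired fit changed the call of 1 named gene, *Zfp36*. *Creb5*, not called in the BaP difference, ran from -0.2512 to 0.0144 as arrays were left out, and changed sign to 0.0127 without wild-type DMSO replicate 2 and to 0.0144 without c35 BaP replicate 1. Among called named genes, *Zfp36* missed the threshold under 12 of 23 alternatives, *Nr4a1* under 11, *Gclc* under 10, *Cxcl10* under 9, and *Cyp1a1*, *Fos* and *Ehf* under 6 each, and *Ptgs2* under 6 of 22. Averaging the probe sets of a gene took the call from *Plk2*, *Srxn1*, *Bcl2*, *Ptgs2*, *Ehf*, *Ror1* and *Sntb1*. With 3 arrays per group, a dim signal such as that of *Ptgs2* limits what can be resolved.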
